A study of Mus musculus with 24 samples.

Results

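The genes described here are 10 regulators and lineage genes of red blood cell and platelet formation: Gata1, Klf1, Zfpm1, Gfi1b, Epor, Nfe2, Itga2b, Pf4, Gp9 and Vwf. They were chosen by name for their roles in these lineages, and they are 10 of the 21938 protein-coding genes in the annotation used. For each gene, the accessible regions (peaks) in the 11 deposited peak lists and the entries of the 3 deposited tables of differing sites were taken within the gene or 30 kb to either side of it (mm10, GENCODE). Peaks that overlapped by at least 1 bp between lists were merged, which gave 117 accessible loci in the windows of the 10 genes out of 100446 in the genome. The windows held 33 to 90 peaks of a list, from lists of 22156 to 70455 peaks.

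The assay was ATAC-seq, which reads out open DNA through the cuts of a transposase, on 24 libraries of cells sorted from C57BL/6 mouse bone marrow. The labels give the controls as Daxx +/+ Cre +/- (Daxx-WT) and the knockouts as Daxx F/F Cre +/- (Daxx-KO), so that every group, the controls included, carried Cre and was induced. Long-term haematopoietic stem cells (LT-HSCs), CMPs (common myeloid progenitors) and GMPs (granulocyte-monocyte progenitors) came from Rosa26CreERT2 mice, in which tamoxifen induces a ubiquitously expressed Cre, with 2 libraries per genotype. The labels give these groups no time, and the study's methods give 3 weeks. LT-HSCs were also taken from Rosa26CreERT2 mice at 3 d.p.i. (days post induction), with 3 Daxx-KO and 2 Daxx-WT libraries. KLS cells (c-Kit+ Lin- Sca-1+) came from Mx1Cre mice, in which pI:pC induces Cre through interferon, at 3 w.p.i. (weeks post induction), with 3 Daxx-KO, 2 Daxx-WT and 2 double-knockout (DKO) libraries whose label adds Pu.1 F/F to Daxx F/F. The labels give no age. A figure legend of the study names a floxed Daxx allele beside Daxx +/+ among the controls at 3 d.p.i., which the labels do not mark. CMPs and GMPs were sorted as separate gates from the same kind of marrow, on CD34 and CD16/32 among lineage-negative c-Kit+ Sca-1- cells, and the lineage antibodies removed maturing erythroid cells.

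Red cells and platelets arise from a shared branch of haematopoiesis that separates from the granulocyte and monocyte branch among the myeloid progenitors. GATA-1, a zinc-finger factor that binds the sequence AGATAA and its variants, drives this branch together with its cofactor FOG1 (the product of Zfpm1), and the repressor GFI1B and the activators KLF1 and NF-E2 act with them. CMPs as sorted here are known to hold cells with erythroid and megakaryocytic potential, and GMPs are known to have largely lost it, so the comparison of CMPs with GMPs asks where the chromatin of these genes differs between the populations. Open chromatin at a gene is not its expression, which was not measured in these files.

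The sequences that bear on the comparison of CMPs with GMPs are those of loci present in the CMP lists of both genotypes and absent from both GMP lists. Of the 8 such loci, the widest of each gene is shown by its central 300 bases of the plus strand of mm10, for the 4 genes where the locus lay at or near the gene itself. Capitals would mark AGATAA or its reverse complement TTATCT, and these centres held neither.
Gata1 chrX:7971165-7971464: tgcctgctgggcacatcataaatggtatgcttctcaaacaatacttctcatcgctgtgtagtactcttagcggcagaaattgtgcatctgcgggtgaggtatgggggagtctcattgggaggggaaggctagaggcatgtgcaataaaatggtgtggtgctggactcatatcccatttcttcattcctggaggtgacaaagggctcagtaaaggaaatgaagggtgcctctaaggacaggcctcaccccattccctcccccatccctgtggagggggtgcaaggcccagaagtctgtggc
Zfpm1 chr8:122343295-122343594: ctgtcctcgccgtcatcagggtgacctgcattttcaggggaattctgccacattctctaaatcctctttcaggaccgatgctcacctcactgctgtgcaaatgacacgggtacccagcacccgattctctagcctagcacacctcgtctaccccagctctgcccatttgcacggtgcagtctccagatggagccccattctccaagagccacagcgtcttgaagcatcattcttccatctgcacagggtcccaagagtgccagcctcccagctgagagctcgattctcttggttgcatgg
Gfi1b chr2:28598647-28598946: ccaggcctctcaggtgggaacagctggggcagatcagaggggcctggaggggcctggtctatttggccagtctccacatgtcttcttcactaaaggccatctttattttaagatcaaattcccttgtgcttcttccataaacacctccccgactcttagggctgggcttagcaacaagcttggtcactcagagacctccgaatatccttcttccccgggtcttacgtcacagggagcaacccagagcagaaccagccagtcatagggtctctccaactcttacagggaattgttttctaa
Vwf chr6:125540991-125541290: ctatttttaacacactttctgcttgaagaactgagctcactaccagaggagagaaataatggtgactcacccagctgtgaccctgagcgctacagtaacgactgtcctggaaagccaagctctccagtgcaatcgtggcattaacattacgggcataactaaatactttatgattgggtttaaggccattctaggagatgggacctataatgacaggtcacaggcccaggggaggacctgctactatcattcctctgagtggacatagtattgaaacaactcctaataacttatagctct
The Vwf centre held the AP-1 and NF-E2 core TGACTCA, which 5.98% of the centres of the 117 loci and 7.82% of all 100446 centres held on either strand.

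Over their whole width, the Gata1 locus (1133 bp) and the Gfi1b locus (2370 bp) each held 3 copies of AGATAA or TTATCT. The Zfpm1 and Vwf loci held 0. Copies over the whole width were not counted for all loci, so these numbers have no background. The 200 bases with most copies in each of the first 2 loci are shown, a choice made after the centres had been read.
Gata1 chrX:7971679-7971878: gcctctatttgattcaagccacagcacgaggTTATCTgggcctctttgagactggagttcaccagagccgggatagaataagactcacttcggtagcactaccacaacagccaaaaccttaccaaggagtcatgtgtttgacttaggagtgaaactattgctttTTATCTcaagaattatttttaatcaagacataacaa
Gfi1b chr2:28598059-28598258: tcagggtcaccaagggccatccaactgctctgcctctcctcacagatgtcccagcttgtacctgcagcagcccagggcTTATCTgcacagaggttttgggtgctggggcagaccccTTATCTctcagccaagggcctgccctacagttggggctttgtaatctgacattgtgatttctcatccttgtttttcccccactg
In the central 300 bases, AGATAA was present on either strand in 12.8% of the 117 loci and 13.6% of all loci. Among all loci found in CMPs alone in both genotypes, 23.8% held it, against 12.2% of those found in GMPs alone, whereas 0 of the 8 such loci at these genes held it in the centre. A match describes the letters alone.

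Promoters are shown for the 3 genes whose start carried a peak in every list except that of DKO cells. They span 300 bases around the start given by RefSeq (GRCm38.p6), along the strand of the gene. RefSeq promoters were found for 8 of the 10 genes, all but Nfe2 and Vwf. Capitals mark AGATAA or TTATCT, and the Pu.1 motif GAGGAAGT or its reverse complement ACTTCCTC.
Gfi1b chr2:28621933-28622232: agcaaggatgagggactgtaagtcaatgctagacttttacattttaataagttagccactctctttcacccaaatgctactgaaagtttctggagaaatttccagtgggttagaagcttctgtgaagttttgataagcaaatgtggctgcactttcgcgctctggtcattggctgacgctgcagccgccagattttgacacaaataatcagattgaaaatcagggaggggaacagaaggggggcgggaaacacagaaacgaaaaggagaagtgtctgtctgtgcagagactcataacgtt
Epor chr9:21963527-21963826: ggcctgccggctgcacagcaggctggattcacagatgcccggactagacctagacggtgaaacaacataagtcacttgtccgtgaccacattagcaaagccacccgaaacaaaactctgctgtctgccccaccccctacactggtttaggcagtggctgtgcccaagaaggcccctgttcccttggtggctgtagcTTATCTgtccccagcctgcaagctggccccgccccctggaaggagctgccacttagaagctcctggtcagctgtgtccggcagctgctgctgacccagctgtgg
Pf4 chr5:90772185-90772484: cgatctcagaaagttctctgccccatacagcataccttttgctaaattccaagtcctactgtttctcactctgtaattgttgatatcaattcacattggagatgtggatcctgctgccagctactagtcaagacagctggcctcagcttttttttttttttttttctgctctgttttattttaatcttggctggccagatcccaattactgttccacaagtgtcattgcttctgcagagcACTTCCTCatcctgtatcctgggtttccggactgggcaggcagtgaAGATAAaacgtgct
Among the 8 promoters, Epor and Pf4 held AGATAA in either orientation, as did 11.2% of 32851 promoters, and Pf4 alone held the Pu.1 motif, as did 3.20% of all.

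The labels were checked on the targeted genes and on marker genes. A peak over the start of Daxx ended 885 to 914 bp into the gene in the 5 Daxx-WT lists and 549 to 623 bp into it in the 6 Daxx-KO and DKO lists. A site at the end of Spi1, which encodes Pu.1, held 2.12 and 4.68 scaled reads in the DKO and 31.1 and 58.1 in the Daxx-WT libraries. Of 8 granulocyte-monocyte markers, all 8 had a peak within 1 kb of a start in both GMP lists, 7 and 6 in the Daxx-WT and Daxx-KO CMP lists, and 2 to 4 in the others. Of the markers of erythroid precursors, the start regions of Hba-a1, Hbb-bt, Alas2 and Slc4a1 had no peak in any list. With 1 list per group there is no spread between libraries, the depth behind the 6 lists without a time label is unknown, and for the site tables the headers give means of 4.21 to 16.0 reads per 600 bp window.

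The start regions of most of these genes were accessible in stem cells, CMPs and GMPs alike. Klf1, the erythroid Kruppel-like factor, and Zfpm1, Nfe2, Itga2b and Gp9 had a peak within 1 kb of the gene's start in all 11 lists. Gfi1b, Epor (the erythropoietin receptor) and Pf4 (platelet factor 4) had one in 10 lists, all but the DKO list. Gata1 and Vwf (von Willebrand factor, the adhesive protein of platelets and endothelium) had none in any list. For Gata1 the annotation places the start of the gene at its outermost first exon, and the promoter given by RefSeq, chrX:7967861-7968160, also held no peak. A Gata1 peak at chrX:7963573-7964482, 139 bp from an internal start, was present in the CMP and GMP lists of both genotypes and in no stem cell or KLS list. Its width was 774 bp in Daxx-WT and 684 bp in Daxx-KO CMPs, against 879 and 843 bp in GMPs.

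**Figure D1:**
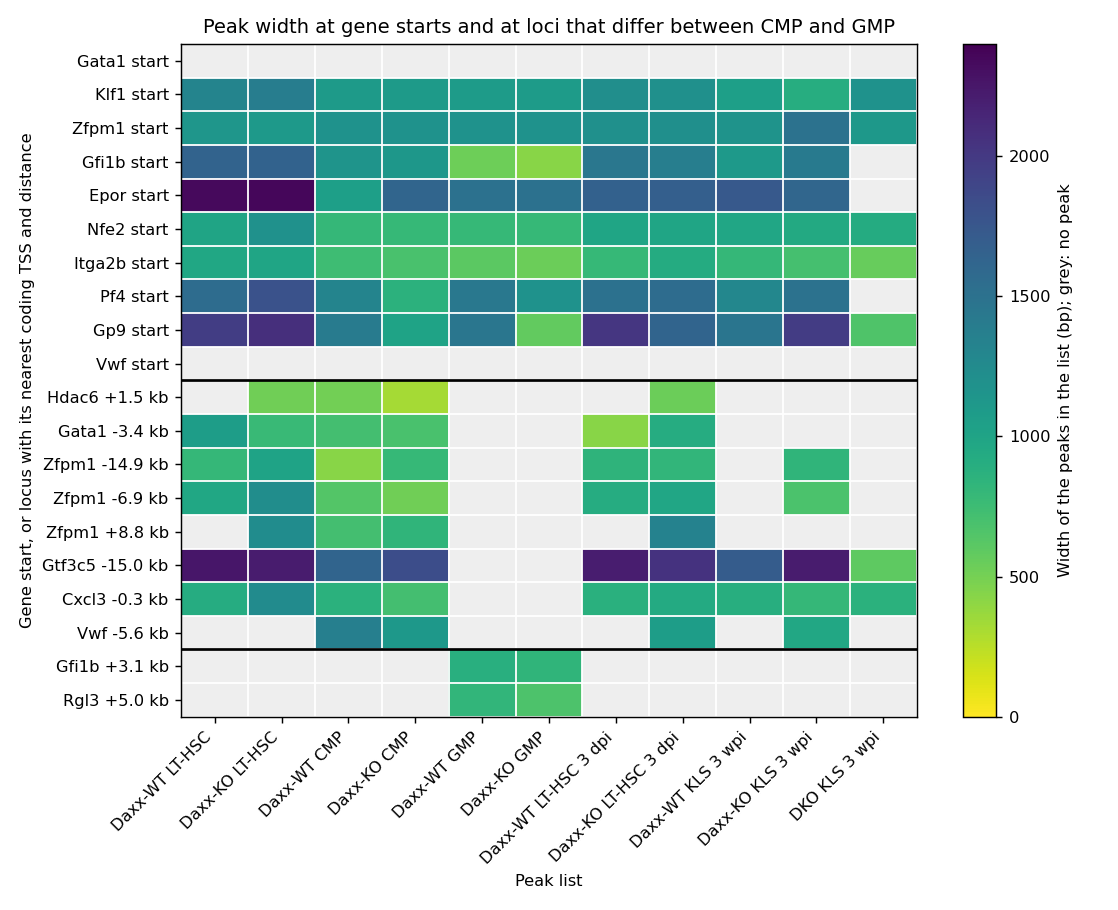
Width in bp (colour) of the peaks of each of the 11 lists (columns) at the start of each gene (upper block), at the 8 loci found in CMPs and not GMPs of both genotypes (middle) and at the 2 loci found in GMPs and not CMPs (lower); grey means no peak, widths of several peaks at a locus are added, and rows are named by the nearest coding start and the distance from it. The starts of Gata1 and Vwf are grey throughout, those of Gfi1b, Epor and Pf4 are grey in DKO cells alone, and the Gfi1b start is narrowest in GMPs, at 528 and 429 bp.

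The width of the start peak varied most at Gfi1b and Gp9. At Gfi1b, a self-repressing regulator of both lineages, the peaks summed to 1640 bp in Daxx-WT and 1646 bp in Daxx-KO LT-HSCs and to 1158 and 1127 bp in CMPs. In GMPs the start peak of Gfi1b was 528 bp wide in Daxx-WT and 429 bp in Daxx-KO, the narrowest of the 10 lists that had one. The GMP lists lacked the part of the region upstream of the start that the CMP lists held as a separate peak. At Gp9, which encodes a subunit of the platelet receptor for von Willebrand factor, the widths were 1399 and 1012 bp in Daxx-WT and Daxx-KO CMPs and 1462 and 572 bp in GMPs. Itga2b, which encodes the integrin subunit CD41, was similar in all 4 lists, with 743 and 688 bp in CMPs and 609 and 543 bp in GMPs. Klf1, Zfpm1 and Nfe2 differed little, with 1094, 1093, 1080 and 1083 bp at Klf1, 1172, 1179, 1172 and 1176 bp at Zfpm1 and 797, 796, 788 and 792 bp at Nfe2, in the same order.

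The peak at the start of Epor was 1041 bp wide in Daxx-WT and 1614 bp in Daxx-KO CMPs, and 1504 and 1500 bp in GMPs. That of Pf4 was 1321 and 858 bp in CMPs and 1443 and 1181 bp in GMPs. The Pf4 start was wider in GMPs in both genotypes, whereas the order at Epor differed between the genotypes. Over the 62 loci of these genes that the Daxx-WT lists of CMPs and GMPs shared, the median log2 ratio of the CMP width to the GMP width was 0.03, and 38 were wider in CMPs. Over all 48285 shared loci the median was also 0.03, and 59.5% were wider in CMPs.

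For the 5 lists with a fold enrichment per peak from the authors, the start of Klf1 was the strongest of the starts in 4. At 3 d.p.i. its fold enrichment was 10.5 in Daxx-WT and 11.3 in Daxx-KO LT-HSCs. In KLS cells it was 8.43 and 10.1 in Daxx-WT and Daxx-KO, and 6.46 in DKO. The exception was Daxx-KO LT-HSCs at 3 d.p.i., where the Epor start was higher, at 11.8. The Itga2b start was the weakest in both lists of LT-HSCs at 3 d.p.i., at 4.20 in Daxx-WT and 5.63 in Daxx-KO, and was 3.27 in the DKO list. The median fold enrichment over the peaks of the 10 genes was 4.51 to 5.41 in the 5 lists, below the median of all peaks of the same list, 4.93 to 6.35, in each of them. Values are compared within a list, since the lists differ in libraries and in length.

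CMPs had more peaks than GMPs in the windows of these genes, by a margin that differed between genes. In Daxx-WT cells, 90 peaks lay in the windows in CMPs and 83 in GMPs. Of the CMP peaks, 19 of 90 (21.1%) had no GMP peak, where the share over all CMP peaks was 20%. Of the GMP peaks, 11 of 83 (13.3%) had no CMP peak, against 18.7% over all GMP peaks. In Daxx-KO cells, 74 and 63 peaks were found, and 23 of 74 CMP peaks (31.1%) had no GMP peak, against 22.6% over all. The reverse share was 12 of 63 (19%), against 21% over all. The share of CMP peaks without a GMP peak thus lay near the background in Daxx-WT cells and above it in Daxx-KO cells, and with 1 list per group these shares have no test. A peak that is absent from a list can mean fewer cells with open chromatin or less open chromatin per cell, which cannot be told apart in bulk samples.

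By gene, 5 of the 10 had more peaks in Daxx-WT CMPs than GMPs, 3 had the same number and 2 had fewer, where 27.6% of all protein-coding genes had more and 28.2% fewer. Of the transcription regulators, Gata1, Klf1, Zfpm1 and Gfi1b had more in CMPs, with 4 against 2, 7 against 6, 17 against 14 and 9 against 7, and Nfe2 had fewer, with 8 against 9. Pf4 had 7 against 6, Itga2b, Gp9 and Vwf had equal numbers, and Epor had 5 against 6. In Daxx-KO cells, 5 genes had more, 1 the same and 4 fewer, where 26.7% of all genes had more and 26% fewer. There Gata1 had 4 against 2, Zfpm1 16 against 11, Gfi1b 10 against 7, Gp9 7 against 4 and Vwf 10 against 8. Gata1, Zfpm1 and Gfi1b had more peaks in CMPs in both genotypes, whereas Klf1 had 5 in Daxx-KO CMPs and 6 in GMPs.

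**Figure D2:**
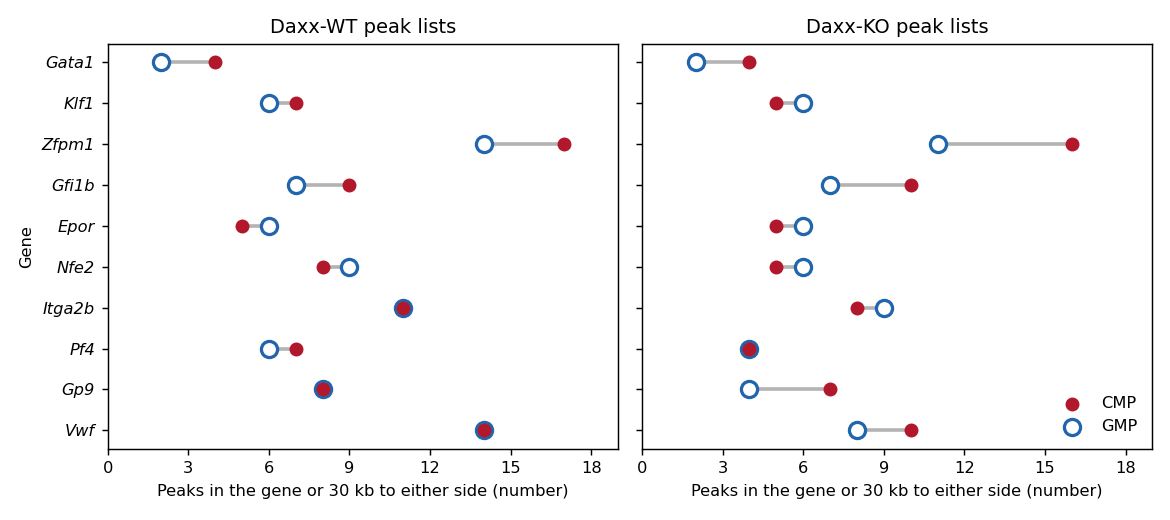
Number of peaks in each gene or 30 kb to either side (horizontal axis) in the CMP list (filled circles) and the GMP list (open circles), for Daxx-WT (left) and Daxx-KO (right); each point is 1 list, so there is no error bar. Zfpm1 has the most peaks in CMPs of either genotype, 17 and 16, and Gata1 has 4 against 2 in both.

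Other genes of the erythroid and megakaryocyte branch were counted in the same way, with no test. These lists were chosen with earlier results of these data known. Genes that lie close together share peaks and are not separate units. Ppbp, of the megakaryocyte list, lies in the Pf4 window and had the same counts as Pf4, 7 against 6 in Daxx-WT and 4 against 4 in Daxx-KO. Of 27 erythroid genes listed, 25 were in the annotation under the name used, and 16 of the 25 (64%, against 27.6% of all genes) had more peaks in Daxx-WT CMPs than GMPs, 7 had the same number and 2 had fewer (8%, against 28.2%). In Daxx-KO cells these numbers were 15 (60%, against 26.7%), 7 and 3 (12%, against 26%). Of 18 megakaryocyte genes, 10 (55.6%) had more in Daxx-WT CMPs, 4 the same and 4 fewer (22.2%), and in Daxx-KO cells 8 (44.4%), 6 and 4. The largest differences in Daxx-WT cells were at Rab27b, a regulator of platelet granules, with 7 peaks in CMPs and 1 in GMPs, and at Meis1, with 14 against 9. Gata2, a GATA factor of stem cells and early progenitors, went the other way, with 6 against 9, as did Cd9, with 9 against 12. Hbb-bt, an adult beta globin gene, had 3 against 1.

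Of the 117 loci, 103 were present in at least 1 of the 4 CMP and GMP lists. All 4 lists shared 51 of these (49.5%, against 46.9% over the 77958 such loci of the genome). CMPs of both genotypes and neither GMP list had 8 (7.77%, against 5.28% over the genome), and GMPs of both genotypes and neither CMP list had 2 (1.94%, against 4.04%). A further 9 loci (8.74%, against 9.05%) were found in Daxx-WT CMPs alone of the 4 lists and 6 (5.83%, against 2.30%) in Daxx-KO CMPs alone. Daxx-WT GMPs alone had 8 (7.77%, against 9.49%) and Daxx-KO GMPs alone 2 (1.94%, against 0.71%). Of the 117 loci, 24 (20.5%) were in all 11 lists, against 15% over the genome.

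At Gata1, the locus found in CMPs and not GMPs was chrX:7970749-7971881, in an intron of the longest transcript and 3405 bp upstream of the nearest start. It was 715 bp wide in Daxx-WT and 690 bp in Daxx-KO CMPs, and it was absent from both GMP lists and from the 3 KLS lists. LT-HSCs had it in all 4 lists, at 1062 bp in Daxx-WT, 775 bp in Daxx-KO, and 423 and 917 bp in Daxx-WT and Daxx-KO at 3 d.p.i. An enhancer a short way upstream of the haematopoietic first exon of Gata1 is known, and whether this peak is that element was not tested. The other such locus in the Gata1 window lay at chrX:7936866-7937408, in Hdac6 and 1535 bp from a start of that gene.

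Zfpm1 had 3 loci of this kind, all within introns of the readthrough gene Gm20388, which spans it. They were chr8:122266712-122267727 and chr8:122274639-122275858, upstream of the first exon by 14922 and 6893 bp, and chr8:122342779-122344111, 60.6 to 62.0 kb from the gene's start and past its end. The last was 716 bp wide in Daxx-WT and 827 bp in Daxx-KO CMPs, was absent from both Daxx-WT lists of LT-HSCs, and was 1230 and 1333 bp wide in the Daxx-KO lists of LT-HSCs without a time label and at 3 d.p.i. Its fold enrichment in the last list, 3.42, was higher than that of 6.62% of the peaks in that list. Neither the DKO list nor the Daxx-WT list of KLS cells held any of the 3 loci. The Daxx-KO list of KLS cells held those upstream of the first exon, at 830 and 675 bp.

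At Gfi1b, a broad region at chr2:28597612-28599981, 22 to 24.4 kb from the start and past the end of the gene, was intergenic and present in 9 lists, all but those of GMPs. It summed to 1628 bp in Daxx-WT and 1831 bp in Daxx-KO CMPs, to 2259 and 2216 bp in LT-HSCs, to 1704 and 2220 bp in KLS cells, and to 599 bp in DKO KLS cells. Its nearest protein-coding start was that of Gtf3c5, 15045 bp away. The fold enrichment of this region was 4.94 in Daxx-WT and 6.04 in Daxx-KO LT-HSCs at 3 d.p.i., and 4.43, 5.33 and 3.69 in Daxx-WT, Daxx-KO and DKO KLS cells. GMPs of both genotypes had instead a peak in an intron of Gfi1b, chr2:28618446-28619336, 889 bp wide in Daxx-WT and 829 bp in Daxx-KO, that no other list held.

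Upstream of Vwf, the locus chr6:125540221-125542060, 5634 bp before the nearest start, was 1362 bp wide in Daxx-WT and 1122 bp in Daxx-KO CMPs. GMPs, LT-HSCs without a time label, DKO KLS cells, and the Daxx-WT lists of LT-HSCs at 3 d.p.i. and of KLS cells had no peak there. The Daxx-KO lists of LT-HSCs at 3 d.p.i. and of KLS cells had one, of 1066 and 958 bp. Its fold enrichment was 5.21 and 3.74 in these 2 lists. In the Pf4 window the locus of this kind, chr5:90785212-90786462, lay at the start of the neighbouring chemokine gene Cxcl3, and the second of the 2 loci found in GMPs alone lay in an exon of Rgl3, in the Epor window, at chr9:21968900-21969720. Klf1, Nfe2, Itga2b and Gp9 had no locus that differed between CMPs and GMPs in both genotypes.

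**Figure D3:**
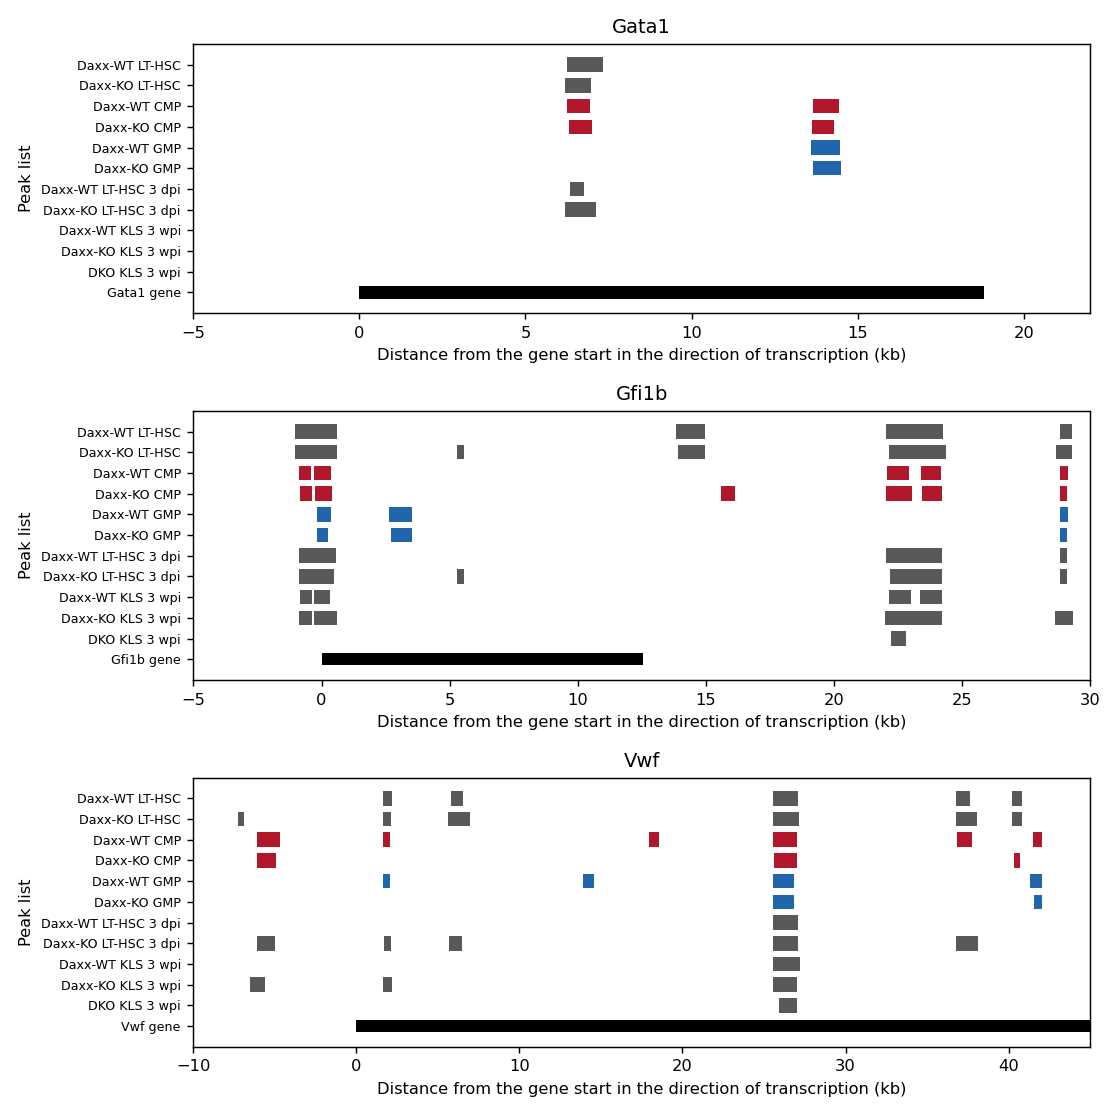
Peaks (boxes) of each of the 11 lists (rows) along Gata1, Gfi1b and Vwf, by distance in kb from the start of the gene in the direction of transcription; CMP lists are red, GMP lists blue, the others grey, and the black bar is the gene, of which the panel for Vwf shows the first part. The Gata1 peak at 6.19 to 7.32 kb, the Gfi1b region at 22 to 24.4 kb and the Vwf peak 4.71 to 6.55 kb before the start are present in both CMP lists and empty in both GMP lists.

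The Daxx-KO lists were then compared with the Daxx-WT lists of the same population. In LT-HSCs without a time label, 7 of 90 Daxx-KO peaks (7.78%, against 13.9% over all) lay outside the Daxx-WT list, that is, overlapped none of its peaks, and 6 of 90 Daxx-WT peaks (6.67%, against 6.78%) had no Daxx-KO peak. In CMPs, 6 of 74 Daxx-KO peaks (8.11%, against 6.26%) lay outside the Daxx-WT list, and 23 of 90 Daxx-WT peaks (25.6%, against 28.5%) had no Daxx-KO peak. In GMPs these were 2 of 63 (3.17%, against 4.55%) and 22 of 83 (26.5%, against 27.6%). The Daxx-KO lists of CMPs and GMPs were shorter as a whole, with 50590 and 49677 peaks against 66070 and 65306. Vwf had 10 peaks in Daxx-KO and 14 in Daxx-WT CMPs, and 8 against 14 in GMPs.

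In LT-HSCs at 3 d.p.i., 18 of 80 Daxx-KO peaks (22.5%, against 24.1%) lay outside the Daxx-WT list, and 3 of 65 Daxx-WT peaks (4.62%, against 8.68%) had no Daxx-KO peak. In KLS cells, these were 17 of 63 (27.0%, against 31.8%) and 4 of 51 (7.84%, against 8.06%). Vwf had 9 peaks in Daxx-KO and 4 in Daxx-WT LT-HSCs at 3 d.p.i., and 8 against 3 in KLS cells. Both Daxx-KO lists came from 3 libraries and their Daxx-WT lists from 2. As a whole, the Daxx-KO lists were longer, with 44326 and 44694 peaks against 36949 and 33325. In DKO KLS cells, 3 of 33 peaks (9.09%, against 21.4%) lay outside the Daxx-WT list, and 21 of 51 Daxx-WT peaks (41.2%, against 48.4%) had no DKO peak. The DKO list was shorter as a whole, with 22156 peaks against 33325. Zfpm1 had 5 peaks in DKO and 12 in Daxx-WT cells, Gfi1b had 3 against 7 and Vwf 1 against 3. Klf1 had 5 against 6, Gata1 had 1 in each, and Nfe2 went the other way, with 6 against 4.

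The site tables give a value per library, the number of reads at the site divided by a constant of the library, and list only sites that the authors selected on these libraries. A test on them is therefore not independent of the selection. Nothing in the labels says that libraries of a group came from separate mice, so p-values rest on the spread between these libraries. Values were tested on the log2(value + 1) scale by limma, with p-values adjusted by Benjamini-Hochberg for the number of windows tested per the headers, and a difference was called at a false discovery rate of 0.05. On these values, limma gave the sites of the DKO table the same SE, 0.36, from a variance pooled over sites. A p-value there follows the size of the log2 difference and not the spread of the libraries at that site.

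The windows held 23 listed sites of LT-HSCs at 3 d.p.i., of which 13 had a higher and 10 a lower mean in Daxx-KO. Of all sites in the table, 29.1% were higher and 70.9% lower. The limma test called 0 of the 23 sites, 0% of the whole table in either direction. The unadjusted limma p was below 0.05 at 18 of the 23 sites and at 11454 of all 11927 listed sites. The median log2 difference over the 23 sites was 0.46, and it was -1.05 over all 11927 sites. It was 0.25 without the second Daxx-KO library in header order, which had 4.21 reads per window on average where the other 4 libraries had 7.93 to 9.60. A peak of either group overlapped 13 of the 23 sites (56.5%, against 28.9% of all sites), and 10 of these 13 had a higher mean in Daxx-KO, where 66.3% of all sites in a peak did. The higher sites lay at Gata1, Zfpm1, Gfi1b, Epor, Itga2b and Vwf.

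At Gata1, the listed site chrX:7971201-7971800 lay within the locus found in CMPs and not GMPs. The 3 Daxx-KO libraries held 106 scaled reads, 109 and 72.8 there and the 2 controls 59.7 and 46.9, a log2 difference of 0.82 (SE 0.27, adjusted p = 0.65 by limma). All 3 Daxx-KO values lay above both Daxx-WT values, and the difference did not pass the test.

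At Zfpm1, all 4 listed sites had higher means in Daxx-KO, 3 of them nearest to the gene itself. The site chr8:122340951-122343050, which overlapped the locus past the end of Zfpm1, held 307 scaled reads, 350 and 359 against 179 and 157 (log2 difference 1.01, SE 0.22, adjusted p = 0.30 by limma). An intronic site, chr8:122320951-122322350, held 328 scaled reads, 432 and 320 against 195 and 211 (log2 difference 0.81, SE 0.24). A smaller site between them and outside any peak, chr8:122339251-122339950, held 56.0, 54.4 and 63.3 against 32.7 and 24.4 (log2 difference 1.01, SE 0.24). The groups did not overlap at any of these sites. At Gfi1b, both listed sites lay in the region past the end of the gene. The first, chr2:28597901-28598750, held 440 scaled reads, 501 and 367 against 340 and 335 (log2 difference 0.36, SE 0.24), and the second, chr2:28598951-28599750, held 347, 514 and 306 against 275 and 271 (log2 difference 0.47, SE 0.28). At both, the Daxx-KO libraries spread widely and the lowest lay just above the Daxx-WT libraries.

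Vwf had the most listed sites, 9, of which 4 were higher and 5 lower in Daxx-KO. At chr6:125540551-125542150, the locus upstream of the gene that CMPs and not GMPs held, the Daxx-KO libraries had 182 scaled reads, 157 and 126 and the Daxx-WT libraries 81.1 and 74.1 (log2 difference 0.97, SE 0.25, adjusted p = 0.32 by limma). An intronic site, chr6:125583201-125584400, held 180, 142 and 154 against 90.2 and 67.5 (log2 difference 1.01, SE 0.24). Both lay in a peak of the Daxx-KO list and in none of the Daxx-WT list. The largest difference of the 9, 1.37 (SE 0.22, adjusted p = 0.30 by limma), was at a low site outside any peak, chr6:125564051-125564700, with 28.5 scaled reads, 24.8 and 27.5 against 10.1 and 9.38. Of the lower sites, those with the largest differences lay outside the peaks of both lists compared. At chr6:125578551-125579150 the values were 14.7, 11.5 and 14.8 against 46.2 and 21.6 (log2 difference -1.17, SE 0.33), where the Daxx-WT libraries differed from each other, and at chr6:125559801-125560700 they were 30.3, 26.7 and 29.6 against 69.9 and 53.5 (log2 difference -1.06, SE 0.23). In a peak, chr6:125572401-125573100 lay in the intronic peak that all 11 lists held, with 206 scaled reads, 202 and 183 against 275 and 271 (log2 difference -0.47, SE 0.22). Another lower site in a peak of both lists, chr6:125595151-125596200, held 50.5, 55.4 and 63.3 against 93.5 and 101 (log2 difference -0.78, SE 0.23).

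At Itga2b, a site 9353 bp upstream, in an exon of Gpatch8, held 96.4 scaled reads, 97.4 and 109 against 54.1 and 36.6 (log2 difference 1.16, SE 0.25, adjusted p = 0.30 by limma). At the start of Epor, the values were 429, 590 and 391 against 327 and 343 (log2 difference 0.46, SE 0.26). No site was listed at Klf1, and the sites in the Nfe2, Pf4 and Gp9 windows lay at their neighbours Copz1, Ppbp, Efcc1 and Rab43 and were lower in Daxx-KO.

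**Figure D4:**
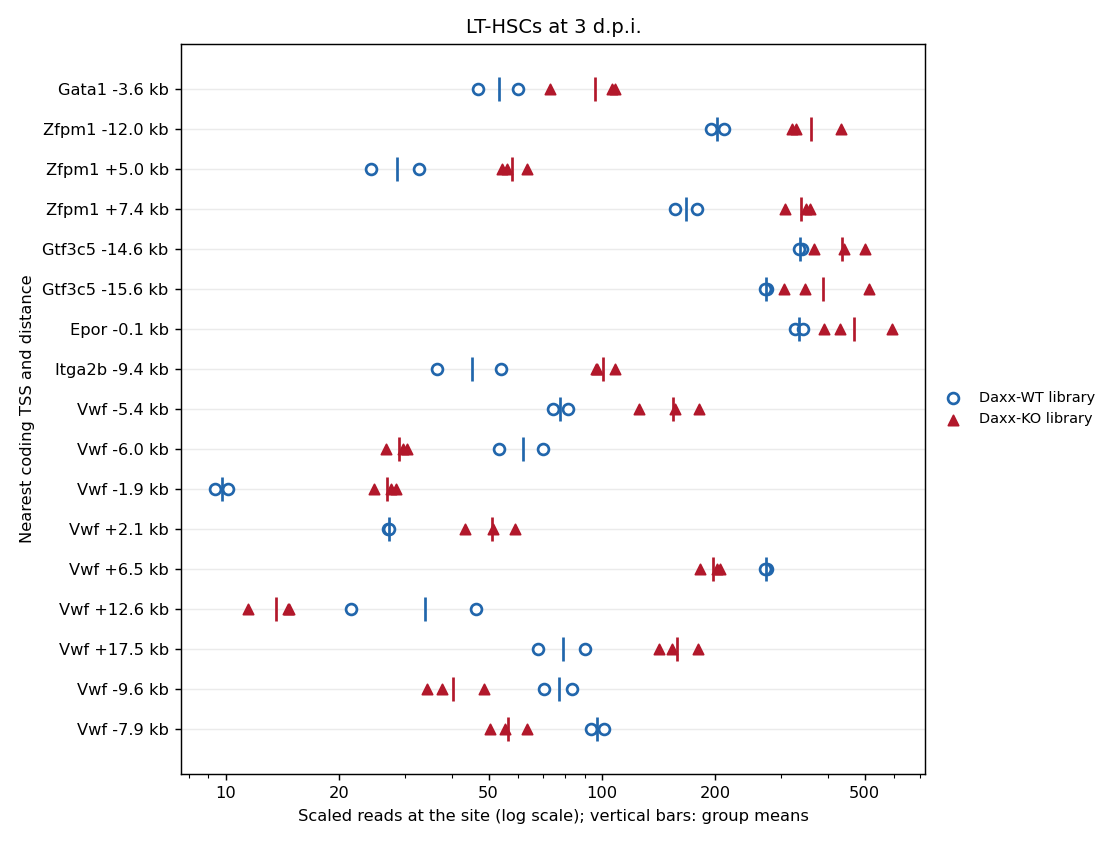
Scaled reads (log axis) at the listed sites of LT-HSCs at 3 d.p.i. that lay nearest to one of the genes, and at the 2 sites in the region past the end of Gfi1b (nearest start Gtf3c5), for each Daxx-WT library (open circles) and Daxx-KO library (triangles); vertical bars are group means, and sites are named by the nearest coding start and the distance from it. The groups do not overlap at any site shown, which were listed for a difference on these libraries, and none passed the limma test.

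Of the 8 loci found in CMPs and not GMPs of both genotypes, 4 overlapped a listed site that was higher in Daxx-KO LT-HSCs at 3 d.p.i.: those at Gata1, past the end of Zfpm1, past the end of Gfi1b and upstream of Vwf. None overlapped a lower site. Over all 4113 loci of this kind, 10.4% overlapped a higher and 1.77% a lower site, and over all 100446 loci 2.86% overlapped a higher site. This count was made after the sites had been seen, on 8 loci that are few and partly share a gene, and has no test. In the Daxx-KO KLS table, 0 of the 8 overlapped a higher site (5.81% over the 4113) and 2 a lower site (3.79%). Both lower sites reached only the edge of a locus and lay outside the peaks of both KLS lists. The first locus, chr8:122274639-122275858 at Zfpm1, had a peak of 675 bp in Daxx-KO and none in Daxx-WT KLS cells. The other, past the end of Gfi1b, was 2220 bp wide in Daxx-KO and 1704 bp in Daxx-WT KLS cells. In the DKO table, 1 of the 8 overlapped a higher site (3.82%), upstream of Vwf. A lower site overlapped 4 of the 8 (20.4%), the 3 at Zfpm1 and that past the end of Gfi1b.

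The table of Daxx-KO KLS cells had 26 listed sites in the windows, and 22 had a lower and 4 a higher mean than in Daxx-WT. Of all sites in the table, 80.9% were lower and 19.1% higher, so that the direction was that of the table. The limma test called 0 sites, 0% of the table in either direction. The unadjusted limma p was below 0.05 at 24 of the 26 sites and at 16749 of all 17311 listed sites. The median log2 difference was -1.21, against -1.27 over all 17311 sites. Only 4 of the 26 sites overlapped a peak of either group (15.4%, against 20.1% of all sites), and none of these 4 lay at the start of one of the 10 genes. Of these 4, 2 were higher and 2 lower. Of all sites of the table in a peak, 61.0% were higher (median log2 difference 0.70), unlike the table as a whole.

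Zfpm1 held 9 of the 22 lower sites, 8 of them outside the peaks of both lists. At chr8:122275801-122276950, upstream of its first exon, the Daxx-KO libraries had 50.1 scaled reads, 23.6 and 30.1 and the Daxx-WT libraries 92.1 and 74.5 (log2 difference -1.30, SE 0.37, adjusted p = 0.30 by limma). The largest difference at Zfpm1 was in an intron, chr8:122313001-122313600, with 23.4, 11.4 and 11.3 against 41.1 and 37.8 (log2 difference -1.38, SE 0.37). At Gfi1b, a site over an exon, chr2:28609501-28610250, held 16.7, 8.75 and 14.1 against 32.8 and 31.0 (log2 difference -1.26, SE 0.34). At Epor, a site 4244 bp upstream held 11.1, 8.75 and 4.70 against 20.98 and 21.8 (log2 difference -1.35, SE 0.37). These were low values, and the groups did not overlap. At Klf1, the site chr8:84901151-84901800, 453 bp upstream of the start, held 18.9 scaled reads, 18.4 and 17.9 against 42.9 and 34.4 (log2 difference -1.02, SE 0.28, adjusted p = 0.29 by limma), where the 3 Daxx-KO libraries lay close together. At Vwf, a site over an exon, chr6:125598451-125599050, held 16.7, 7.87 and 7.53 against 26.5 and 31.0 (log2 difference -1.43, SE 0.38). The gene also had the only higher site that was nearest to one of the genes, chr6:125524001-125524700, with 41.2, 44.6 and 35.8 scaled reads against 20.98 and 11.5 (log2 difference 1.32, SE 0.34, adjusted p = 0.28 by limma). Gata1 had 1 site in its window, nearest to Hdac6 and lower, and Nfe2 and Pf4 had none.

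In DKO KLS cells, which were compared with the same Daxx-WT libraries, 39 listed sites lay in the windows, 24 lower and 15 higher than in Daxx-WT. The whole table went the other way, with 27.9% lower and 72.1% higher. The limma test called 12 of the 39 lower (14.9% over the whole table) and 13 higher (67.3%). The unadjusted limma p was below 0.05 at all 39 sites and at 50052 of all 50928 listed sites. The median log2 difference was -0.86, against 1.29 over all 50928 sites. All 15 sites that overlapped a peak of either group were lower, 8 of them called, where 69.8% of all such sites were lower. The 15 higher sites all lay outside the peaks of both groups. The calls depend on the scale and on single libraries. When values were scaled to the mean reads per window in the header, 9.98 and 16.0 in the DKO and 8.35 and 7.45 in the Daxx-WT libraries, 24 sites were called lower and 1 higher. Without either DKO library, 0 sites were called in either direction, and without the first Daxx-WT library 4 were called lower and 10 higher.

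Among the regulators, the region past the end of Gfi1b, chr2:28597251-28600250, fell from 570 and 494 scaled reads in the Daxx-WT to 252 and 225 in the DKO libraries (log2 difference -1.15, SE 0.36, adjusted p = 0.017 by limma). The start of Gfi1b, chr2:28621201-28622450, fell from 122 and 138 to 58.3 and 64.6 (log2 difference -1.07, adjusted p = 0.032 by limma). The DKO values were close to each other at both sites, and all 5 sites in the Gfi1b window were called, 4 lower and 1 higher. At Zfpm1, 7 of 9 sites had lower means and 1 of these was called, the intronic site chr8:122330801-122332050, with 98.6 and 102 against 225 and 192 scaled reads (log2 difference -1.04, adjusted p = 0.040 by limma). An intronic site outside any peak, chr8:122327101-122328150, rose from 26.6 and 30.7 to 58.3 and 69.3 (means 28.7 and 63.8, adjusted p = 0.021 by limma). At Klf1, the site chr8:84904001-84905150, 2647 bp past the start, in an exon and outside any peak, rose from 51.5 and 41.7 to 93.3 and 137 (log2 difference 1.27, adjusted p = 0.0062 by limma). Scaled to the header's mean reads, neither of these 2 higher sites was called (adjusted p = 1 and 0.96), and Gata1 had no listed site.

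Among the receptor and platelet genes, the start of Pf4, chr5:90771251-90773100, fell from 293 and 211 to 111 and 100 scaled reads (log2 difference -1.23, SE 0.36, adjusted p = 0.0090 by limma). At Epor, whose start peak was likewise missing from the DKO list, the start held 43.5 and 53.4 against 95.9 and 94.3 (log2 difference -0.97, adjusted p = 0.073), and the difference did not pass the test. The starts of Itga2b and Gp9 were also not called, with 146 and 106 against 256 and 214 (log2 difference -0.91, adjusted p = 0.11) and 133 and 133 against 275 and 199 (log2 difference -0.81, adjusted p = 0.22). Scaled to the header's mean reads, the starts of Epor, Itga2b and Gp9 were called lower (adjusted p = 0.0052, 0.015 and 0.015). A second site at Pf4 lay past the end of the gene and outside the peaks of both KLS lists compared. It overlapped a peak of the Daxx-WT CMP and GMP lists. Its values fell from 61.2 and 52.7 to 20.2 and 30.0 (log2 difference -1.17, adjusted p = 0.014 by limma). Upstream of Gp9, a site 1872 bp from the start fell from 126 and 80.1 to 45.6 and 41.2 (log2 difference -1.19, adjusted p = 0.012 by limma).

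Vwf had 7 listed sites, of which 6 were called, 4 higher and 2 lower, and 3 of the 7 overlapped a peak of either group. The called site chr6:125602951-125604850, over an exon and an internal start, fell from 331 and 358 scaled reads to 146 and 143 (log2 difference -1.24, adjusted p = 0.0078 by limma). The largest difference was at an intronic site outside any peak, chr6:125610301-125611150, which rose from 13.3 and 14.3 to 39.2 and 52.5 (log2 difference 1.65, adjusted p = 0.00019 by limma) and was not called on the header's scale (adjusted p = 0.13). The upstream site chr6:125540701-125541300, in the locus found in CMPs and not GMPs, rose from 21.3 and 19.7 to 39.2 and 49.7 (log2 difference 1.07, adjusted p = 0.033 by limma), a call that was lost on the header's scale (adjusted p = 1). The site lay outside the peaks of both KLS lists compared. Nfe2, a subunit of NF-E2, had 2 sites with higher means, both outside the peaks of both KLS lists compared. The site 5572 bp upstream rose from 17.8 and 13.2 to 34.99 and 38.4 (log2 difference 1.21, adjusted p = 0.010 by limma), again a call lost on the header's scale (adjusted p = 1). The other held 146 and 145 against 60.4 and 89.9 (log2 difference 0.97, adjusted p = 0.068).

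**Figure D5:**
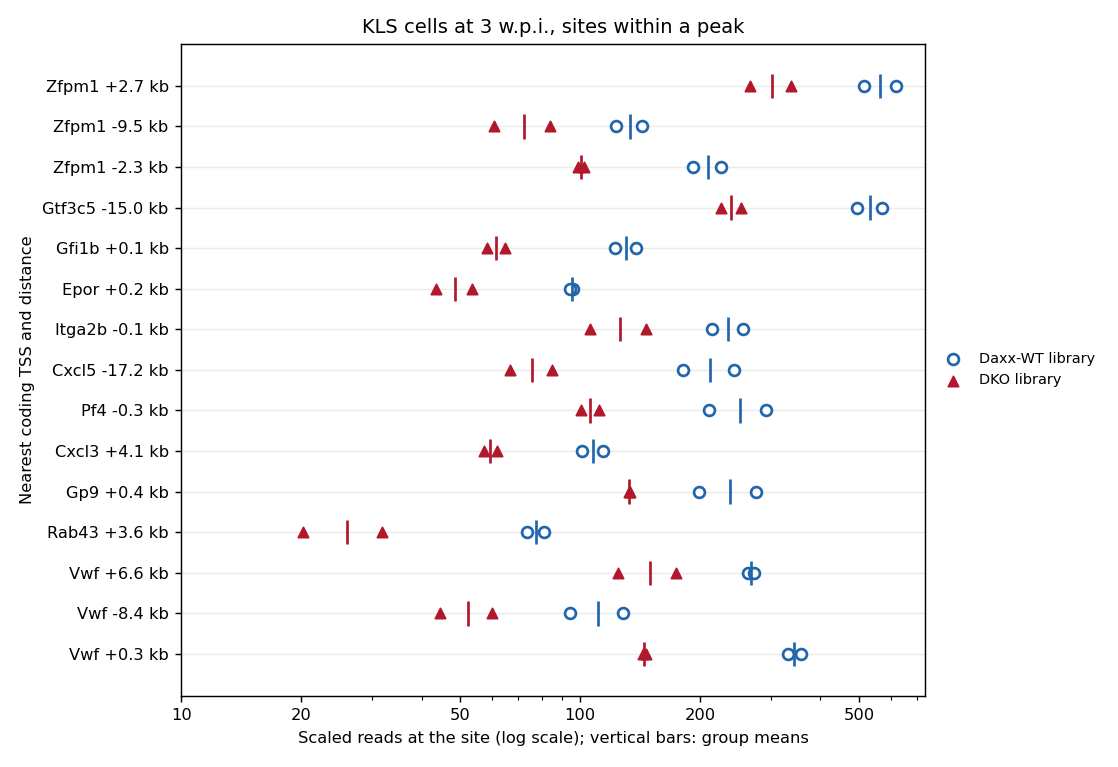
Scaled reads (log axis) at the 15 listed sites in the windows that overlapped a peak of DKO or Daxx-WT KLS cells at 3 w.p.i., for each Daxx-WT library (open circles) and DKO library (triangles); vertical bars are group means, and sites are named by the nearest coding start and the distance from it. Both DKO libraries lie below both Daxx-WT libraries at all 15 sites, which were listed for a difference on these libraries. Of the 15, 8 passed the limma test.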

How the data were processed

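ATAC-seq libraries were aligned and peaks called by the authors. The labels' processing notes name CASAVA 1.8.4, cutadapt 1.13, STAR 2.5.3, bedtools and diffReps 1.55.6, and the peak caller is not given in the sources used here. The study's methods state that CMP and GMP libraries were additionally sequenced as single reads. Of the 11 peak lists the authors deposited, 1 per group, 6 hold positions alone. The other 5 hold reproducible peaks by IDR, with a score (lowest 415), a fold enrichment and −log10 p and q values by the authors. Intervals listed more than once entered as 1 peak with its strongest fold enrichment.

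The 3 tables of sites were made by the authors with diffReps. Per the file headers, windows of 600 bp moved by 50 bp and below a p-value of 0.0001 were merged, and the values per library are read numbers divided by a constant. The deposited log2 fold changes and p-values of the authors' own comparisons were not used. A total of 0 columns of values could not be assigned to a group. The header of the LT-HSC table names no replicate, so those libraries are given in header order.

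Here, peaks and sites within 30 kb of a gene of GENCODE M21 were taken, and each was assigned to the nearest coding start. Peaks were compared by overlap (1 bp), with no test. Site values were tested on the log2(value + 1) scale with limma 3.58.1 (R 4.3.3) over each whole table, with Benjamini-Hochberg adjustment over the 413247, 407030 and 446463 windows tested per the headers, and the step was tested on simulated data. Python 3.11.15, pandas 2.3.3 and numpy 2.4.6 did the rest. Text names all 10 genes, their start peaks, the loci that differ between CMPs and GMPs in both genotypes, and up to 4 sites per gene and table that lie nearest to the gene, by size of difference. Other sites were chosen after their values were seen. The genes, lists and tests were chosen with earlier results of these data known. Alternatives were the overlap, the window, peak width and score, the pseudocount, low values, the scaling, single libraries and a replicate block. Sequences came from mm10 and RefSeq. The list of erythroid precursor markers held a further gene that is not reported here.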

Additional observations from a re-analysis of the deposited data

How the results depend on the processing

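Of 163 alternative values for the counts, shares and medians of peaks and sites, 141 stayed close to the reported value, 22 moved and none changed direction. Of those for single sites, 410 stayed on the same side of the threshold, 12 passed it and 50 no longer did, and none changed direction. At 3 d.p.i., the share of Daxx-WT peaks without a Daxx-KO peak was 0% among peaks nearest to a start of the genes, and the share of DKO peaks without a Daxx-WT peak was 0% at a score of at least 540. Scaled to the mean reads per window in the header, the median log2 difference was 0.80 in the LT-HSC table, -0.74 in the Daxx-KO KLS table and -1.55 in the DKO table, where 1 site was called higher and 24 lower. Over all sites, that scaling put the medians at -0.72, -0.81 and 0.62, with 3314 sites called higher and 13843 lower in the DKO table. Within 10 kb, the LT-HSC median was 0.81 and 8 DKO sites were called higher. Among sites in a peak, the median was -0.16 in Daxx-KO KLS cells and -1.04 in DKO cells, with 0 sites called higher. Over all sites in a peak of these tables, the medians were 0.70 and -0.86.

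Leaving out each library in turn gave medians of 0.25 to 0.59 in LT-HSCs, -1.34 to -0.99 in Daxx-KO KLS cells and -0.98 to -0.69 in DKO cells. In DKO cells, 0 to 11 sites were called higher and 0 to 9 lower: 0 in each direction without either DKO library, and 4 lower without the first Daxx-WT library. For the other comparisons the count was 0 in each case. A group left with 1 library was assumed to vary like the others.

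With a replicate block, 1 site was called higher and 0 lower for Daxx-KO KLS cells, and 13 higher and 12 lower for DKO cells. Deviations of libraries with the same number correlated at 0.0084 and 0.052 in the Daxx-KO and -0.0031 in the DKO table. The deviations of the Daxx-WT libraries mirror each other, so these values cannot show whether libraries with the same number are related. For the LT-HSC table alone, no paired analysis was possible because its header carries no replicate numbers. The planned test on whole reads recovered from the site values was not run. With 1 list per group, peaks carry no error, and at 4.21 to 16.0 reads per window small differences were not detectable.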
